A study of Mus musculus with 8 samples.

Results

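Goblet cells secrete the mucus that covers the intestinal epithelium, and 10 genes that mark them were followed here: Muc2, Tff3, Agr2, Fcgbp, Clca1, Spink4, Zg16, Ern2, Klk1 and Fxyd3. The genes were listed by name, at a time when earlier results of these data were known, so counts over the list describe chosen genes. All 10 were found among the 54532 genes of the count table. All 10 were also among the 9855 genes with enough counts to be tested. Intestinal epithelial cells came from lactating females at lactation day 5, with 4 WT mice and 4 Rank-knockout mice and 1 library from each. According to the study's methods, Rank (Tnfrsf11a), the receptor activator of NF-κB, was floxed and removed by a Cre recombinase under the Villin promoter, which is active throughout the intestinal epithelium, and controls were littermates. Both genotypes were on a C57BL/6J background and had been mated with syngeneic wild-type males, so both genotypes carried RANK-sufficient fetuses. Epithelial cells were shaken free from minced tissue and strained without sorting, and the labels do not give the segment of intestine. RNA was measured as 3′ tags, about 1 per transcript, so that levels, given as CPM (each library's counts scaled to a common total), were not divided by length.

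Mucus is built on a gel-forming mucin that is assembled into disulfide-linked polymers in the goblet cell and expands on release. Other secreted proteins bind, cut or decorate that gel, and a dedicated endoplasmic reticulum machinery folds its unusually large, cysteine-rich chains. Goblet cells arise from crypt progenitors under Atoh1, mature under Spdef and other factors, and lie among absorptive enterocytes along the villus.

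The 10 genes moved in both directions. Muc2, Fcgbp, Clca1 and Zg16 were lower in Rank-knockout cells, at 0.533 to 0.670 of the WT level, whereas Agr2 was 1.80-fold and Spink4 2.04-fold higher. Tff3, Ern2, Klk1 and Fxyd3 did not pass the test. So 4 of 10 genes were called lower, against a background of 14.6% of all tested genes, and 2 of 10 were called higher, against 15.8%. Among the 6118 tested genes with a mean of at least 20 CPM, which include all 10, the background was 20.3% lower and 16.7% higher. The median log2 fold change of the 10 genes was -0.08, and that of all tested genes was 0.02. In bulk RNA, fewer goblet cells and less RNA per goblet cell cannot be told apart. The cells were not sorted, so the values do not show which cell type held the RNA of a gene.

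The targeted gene and the depth of the libraries frame these values. Tnfrsf11a stood at 77.4, 49.7, 41.7 and 73.9 CPM in WT replicates 1 to 4 and at 27.2, 42.0, 35.5 and 47.2 CPM in the Rank-knockout replicates. The groups overlapped, although the gene was called lower (log2 fold change -0.67 ± 0.22 SE, edgeR adjusted p = 0.0321), and the 3′ tags may lie outside the deleted exons, in which case they do not check the deletion. The smallest library had 1530781 counts and the largest 4335653, and WT replicate 2 lay far above the other WT libraries. The share of counts held by the top 50 genes was 19.0 to 19.9% in WT and lower, 14.4 to 16.6%, after Rank deletion, so the scaling between genotypes bears on small fold changes.

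Promoters are shown for 2 gel genes that fell, Muc2 and Fcgbp, and for Agr2, which rose, because the 3 moved in different directions within the same libraries. RefSeq promoters were matched for 5 of the 10 genes, Muc2, Agr2, Fcgbp, Klk1 and Fxyd3. Each stretch is 220 bases of GRCm38.p6, from 250 to 31 bases before the RefSeq start, and capitals mark matches on either strand to CAGCTG (an E-box of the kind bound by Atoh1), TATAAA (the letters of a TATA-type motif, here upstream of where a core promoter box would lie), TTTATG (for CDX factors), CACCC (for KLF factors) or AGATAA (for factors of the GATA family).
Muc2, chr7:141690090-141690309, plus strand: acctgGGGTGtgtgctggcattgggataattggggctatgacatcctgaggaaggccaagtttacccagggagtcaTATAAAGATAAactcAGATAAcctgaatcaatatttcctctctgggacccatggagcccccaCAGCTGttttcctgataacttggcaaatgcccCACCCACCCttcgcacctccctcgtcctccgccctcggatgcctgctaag
Fcgbp, chr7:28070986-28071205, plus strand: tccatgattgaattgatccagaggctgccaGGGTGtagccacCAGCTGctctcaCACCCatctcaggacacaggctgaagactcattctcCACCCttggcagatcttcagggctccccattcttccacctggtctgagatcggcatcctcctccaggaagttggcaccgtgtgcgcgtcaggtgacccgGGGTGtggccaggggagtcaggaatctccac
Agr2, chr12:35992675-35992894, plus strand: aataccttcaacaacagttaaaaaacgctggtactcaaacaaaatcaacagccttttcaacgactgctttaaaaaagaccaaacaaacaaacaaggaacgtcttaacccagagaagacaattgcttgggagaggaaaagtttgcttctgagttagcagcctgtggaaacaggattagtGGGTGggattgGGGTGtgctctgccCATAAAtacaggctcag
The core of the endoplasmic reticulum stress element, CCACG, was searched too and had no match in these 3 windows.

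The Muc2 window held 1 CAGCTG, 1 TATAAA, 2 AGATAA and 3 CACCC matches, with TATAAA and the first AGATAA overlapping and 2 of the CACCC matches sharing bases. Fcgbp held 1 CAGCTG and 4 CACCC matches. Agr2 held neither CAGCTG nor TATAAA, and had 1 TTTATG match 47 bases before the RefSeq start and 2 CACCC matches. Over 32851 mouse promoter windows of the same length, CAGCTG occurred in 11.4%, TATAAA in 9.95%, TTTATG in 9.56%, AGATAA in 9.04%, CCACG in 25.4% and CACCC in 47.8%. A match to CACCC or CCACG is therefore common, and the others occur in a smaller share but still in many windows. Windows with more than 1 match to the same letters were not counted. These are letter matches and not measured binding, and the windows leave out the core promoter next to the RefSeq start. For Agr2, the gene start of GENCODE M21 (35992907) lies nearer to the end of the window (35992894). Part of a core promoter at that start may therefore fall inside the Agr2 window.

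Gene positions below are those of GENCODE M21 on GRCm38. Muc2, on chromosome 7 (141690340 to 141754693, plus strand), encodes the gel-forming mucin of intestinal mucus. Its level was 814, 984, 611 and 985 CPM in WT replicates 1 to 4 and 516, 581, 541 and 639 CPM in Rank-knockout replicates 1 to 4. WT replicate 3 lay below Rank-knockout replicate 4, and the other WT libraries lay above all Rank-knockout libraries. The mean fell from 849 ± 178 to 569 ± 53.7 CPM (SD, n = 4 each). The log2 fold change was -0.58 ± 0.16 (SE), with edgeR adjusted p = 0.0144. With library totals in place of TMM scaling the difference was -0.38 and no longer passed (adjusted p = 0.0759). The annotation marks Muc2 as a fragmented locus, and what this does to its count was not tested.

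Fcgbp, the IgG Fc-binding protein that is cross-linked into the gel, lies on the same chromosome (28071236 to 28120862, plus strand). WT libraries held 1098, 981, 842 and 1349.9 CPM, and Rank-knockout libraries held 649, 700.2, 632 and 766 CPM. All Rank-knockout values were below all WT values. The mean went from 1068 ± 215 to 687 ± 60.1 CPM (SD), which is a change of -0.64 ± 0.16 (SE) in log2 units that passed in edgeR (adjusted p = 0.00699).

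Clca1 encodes a secreted metalloprotease of the mucus layer (chromosome 3, 145003817 to 145032776, minus strand). Its levels were 1757, 1611, 1357 and 1539 CPM in WT libraries, against 555, 1149, 1005 and 1220.5 CPM after Rank deletion. The groups did not overlap, and Rank-knockout replicate 1 was much the lowest. The mean fell from 1566 ± 166 to 982 ± 298 CPM (SD), or by 0.67 ± 0.20 (SE) on the log2 scale, with an adjusted p of 0.0215 in edgeR. The call was lost without WT replicate 1 (-0.64, adjusted p = 0.0623) and with library totals (-0.48, adjusted p = 0.0714).

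Zg16, a lectin-like protein that binds the cell wall of Gram-positive bacteria, was the most abundant of the 10 genes and ranked number 4 by mean level among all tested genes. Its gene lies on chromosome 7 (127050156 to 127087328, minus strand). The level was 9368, 12415, 8830.2 and 9491 CPM in WT libraries against 4253, 5701, 6240.4 and 5198 CPM in Rank-knockout libraries. No Rank-knockout library reached the lowest WT library. With a change of -0.91 ± 0.17 (SE) in log2 units and an edgeR adjusted p of 0.0012, Zg16 showed the largest fall of the 10.

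Non-overlapping ranges were thus seen for 3 of the 10 genes with Rank-knockout below WT, where 14.3% of all tested genes had such ranges, and for 2 with Rank-knockout above WT, against a background of 14.4%. Tff3, a trefoil peptide that is secreted with the mucin and aids epithelial repair, lies on chromosome 17 (31125306 to 31129646, minus strand). It measured 997, 1106, 1143 and 959.8 CPM in WT libraries, against 766, 788, 1030.1 and 838 CPM after Rank deletion. Rank-knockout replicate 3 lay inside the WT range and the other 3 lay below it. The log2 difference was -0.30 ± 0.14 (SE), with a 95% interval from -0.60 to 0.0082 and an edgeR adjusted p of 0.129, so the interval includes both 0 and the -0.58 of Muc2. With library totals in place of TMM scaling the Tff3 difference was -0.097 (edgeR adjusted p = 0.607), beside -0.38 for Muc2.

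**Figure D1:**
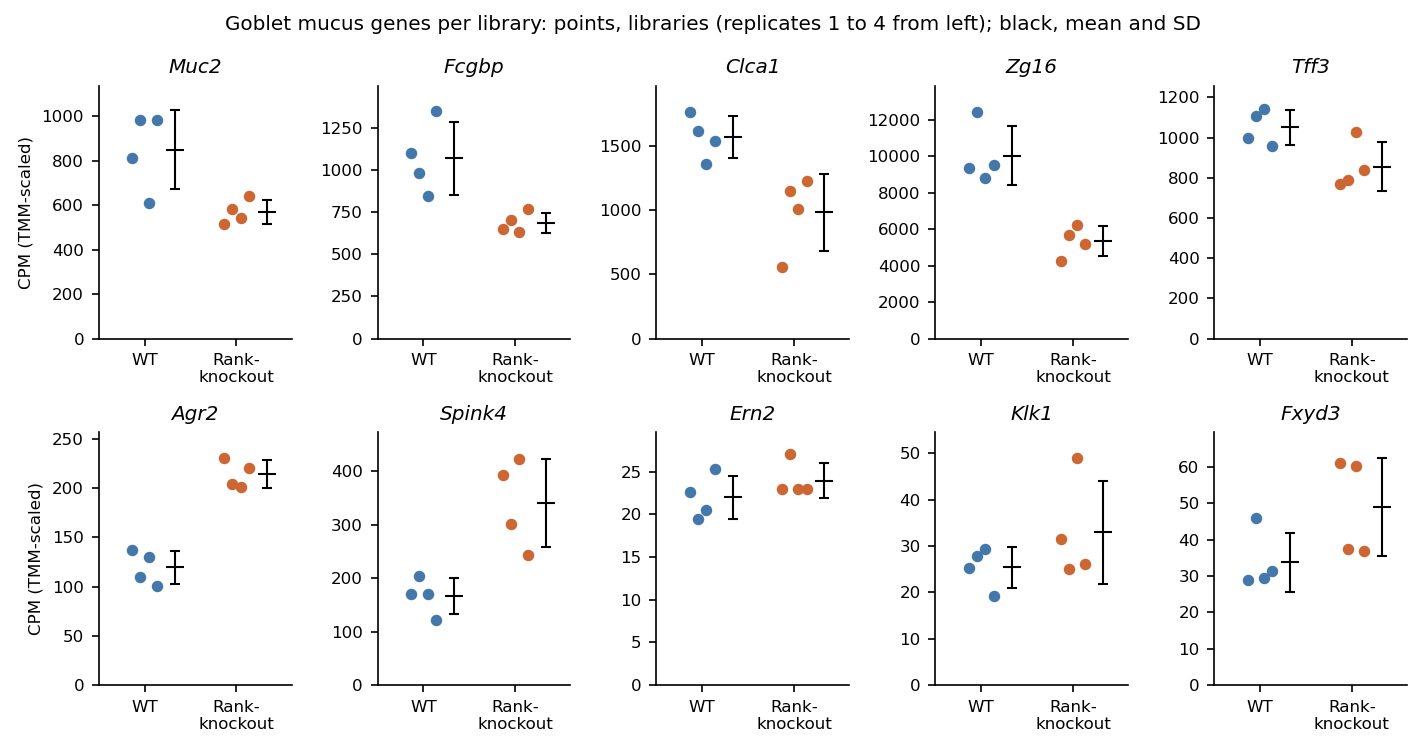
Levels of the 10 goblet mucus genes in CPM (y axis, linear from 0, TMM-scaled) for each WT (blue) and Rank-knockout (orange) library, with the mean and SD of 4 libraries in black. Rank-knockout libraries sit wholly below WT for Fcgbp, Clca1 and Zg16 and wholly above WT for Agr2 and Spink4, and the groups overlap for the other 5 genes.

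Agr2 and Ern2 act inside the endoplasmic reticulum of goblet cells. Agr2, a protein disulfide isomerase needed to make mucin, lies on chromosome 12 (35992907 to 36004087, plus strand). Its level was 137, 110.0, 130.4 and 101 CPM in WT libraries and 231, 204, 201 and 220.1 CPM in Rank-knockout libraries. Every Rank-knockout library was well above every WT library. The mean rose from 119 ± 17.1 to 214 ± 13.9 CPM (SD), by 0.85 ± 0.14 (SE) in log2 units, and the edgeR adjusted p was 0.000615.

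Ern2 encodes the epithelial form of the IRE1 stress sensor (chromosome 7, 122169893 to 122186207, minus strand). It was low, at 22.6, 19.5, 20.5 and 25.3 CPM in WT libraries, against 22.9, 27.0, 22.9 and 22.9 CPM after Rank deletion. The groups overlapped, and the log2 difference was 0.14 ± 0.18 (SE, 95% interval -0.26 to 0.53, edgeR adjusted p = 0.616), falling to 0.06 without WT replicate 2 and 0.07 without Rank-knockout replicate 2. The Ern2 difference was 0.34 with library totals and 0.27 with library sizes that left out the 50 most abundant genes, and passed with neither.

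Spink4 encodes a small secreted peptide of the Kazal-type protease inhibitor family (chromosome 4, 40920052 to 40931395, plus strand). WT libraries held 171, 203, 170.0 and 121 CPM and Rank-knockout libraries 392, 302, 423 and 244 CPM. The groups did not overlap, and the change of 1.03 ± 0.19 (SE) in log2 units, with an edgeR adjusted p of 0.00127, was the largest rise of the 10 genes. Klk1, the tissue kallikrein, a serine protease (chromosome 7, 44225360 to 44229618, plus strand), stood at 25.3, 27.9, 29.4 and 19.3 CPM in WT libraries, against 31.6, 25.1, 49.0 and 26.1 CPM after Rank deletion. The ranges overlapped. The Klk1 difference was 0.35 ± 0.23 on the log2 scale (SE, 95% interval -0.14 to 0.83, edgeR adjusted p = 0.269), and it was 0.11 without Rank-knockout replicate 3 and 0.21 without WT replicate 4. It was larger, 0.55, with library totals, and did not pass there either (edgeR adjusted p = 0.0757).

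Fxyd3, a small membrane protein that modulates the sodium-potassium pump (chromosome 7, 31068172 to 31076704, minus strand), measured 28.8, 45.9, 29.4 and 31.3 CPM in WT libraries, against 61.1, 37.5, 60.2 and 36.9 CPM after Rank deletion. WT replicate 2 lay above 2 Rank-knockout libraries, and the other WT libraries lay below all of them. The log2 difference of 0.50 ± 0.22 (SE, edgeR adjusted p = 0.0977) did not pass. It passed without WT replicate 2 (0.70, adjusted p = 0.0200), without Rank-knockout replicate 4 (0.61, adjusted p = 0.0424), with library totals (0.71, adjusted p = 0.0229), with library sizes that left out the 50 most abundant genes (0.63, adjusted p = 0.0375) and with no filter on low counts (0.53, adjusted p = 0.0447).

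**Figure D2:**
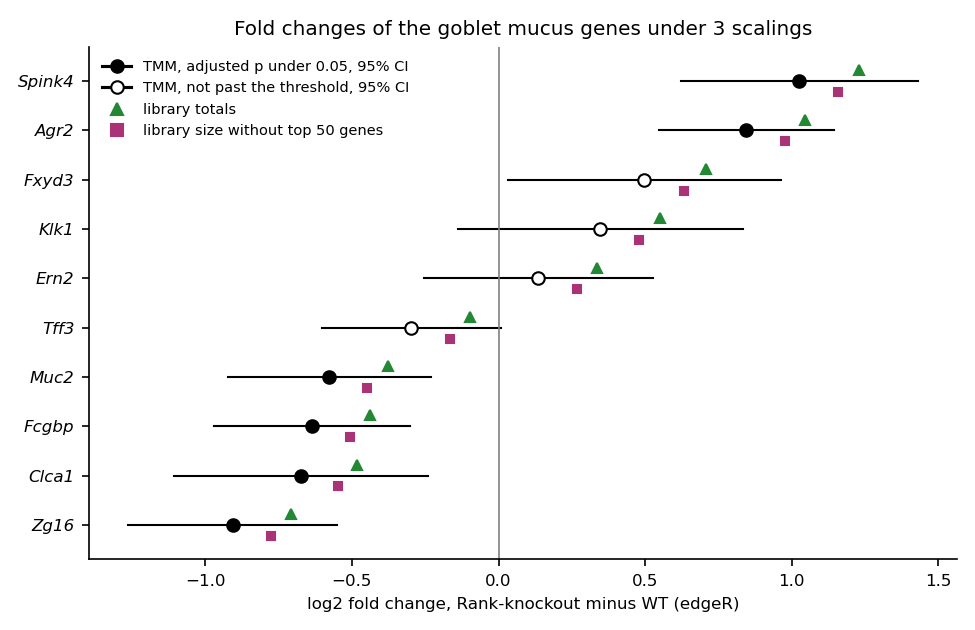
Log2 fold change, Rank-knockout minus WT (x axis), of each goblet mucus gene, with 95% intervals under TMM scaling (circles, filled where adjusted p was under 0.05) and the values under 2 other scalings (triangles, squares). The other scalings shift every gene upward, and Zg16, Fcgbp, Clca1 and Muc2 stay below 0 while Agr2 and Spink4 stay above 0 under all 3 scalings.

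By level, Zg16 stood far above the rest in WT libraries, at 10026 ± 1618 CPM (SD), and Clca1 followed. Fcgbp, Tff3 and Muc2 came next and overlapped one another, then Spink4 and Agr2, which also overlapped, and last Fxyd3, Klk1 and Ern2. The Klk1 range (19.3 to 29.4 CPM) overlapped those of both Fxyd3 (28.8 to 45.9 CPM) and Ern2 (19.5 to 25.3 CPM), which did not overlap each other. In Rank-knockout libraries Spink4 (244 to 423 CPM) and Agr2 (201 to 231 CPM) no longer overlapped, and Clca1 overlapped Tff3, Fcgbp and Muc2.

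Added together, the 10 genes gave 14927 ± 1835 CPM in the WT libraries and 9102 ± 1159 CPM in the others (SD, n = 4 each), a ratio of 0.610, with no overlap. Zg16 made up 67.0% of the WT sum and 58.6% of the Rank-knockout sum, and without it the ratio was 0.766. Agr2 and Spink4 together took 1.52 to 2.28% of the sum in WT libraries, against 5.04 to 8.34% after Rank deletion. The sum therefore followed the abundant gel genes. It is given as a description with no test.

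Dividing each gene by Muc2 within its own library removes the scaling between libraries. On that log2 scale Zg16 (-0.35), Fcgbp (-0.06), Clca1 (-0.17) and Tff3 (0.25) had overlapping ranges, and single libraries carried some of these values. Without Rank-knockout replicate 1 the Clca1 value turned to 0.03, without WT replicate 2 the Fcgbp value was -0.18 (-0.02 without WT replicate 3 or 4 and -0.03 without WT replicate 1), and the Tff3 value ran from 0.13 without WT replicate 4 to 0.44 without WT replicate 3 and was 0.14 without Rank-knockout replicate 3. Agr2 (1.41), Spink4 (1.58), Fxyd3 (1.07) and Ern2 (0.68) were higher against Muc2 in every Rank-knockout library than in any WT library, and Klk1 (0.89) overlapped. These ratios share the Muc2 counts and carry no test. Muc2 itself was lower in Rank-knockout libraries (log2 fold change -0.58), so a gene of unchanged level rises against it. In CPM, the ranges of Ern2 and Fxyd3 overlapped between genotypes. The share of all genes that separate in this way against Muc2 was not counted.

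**Figure D3:**
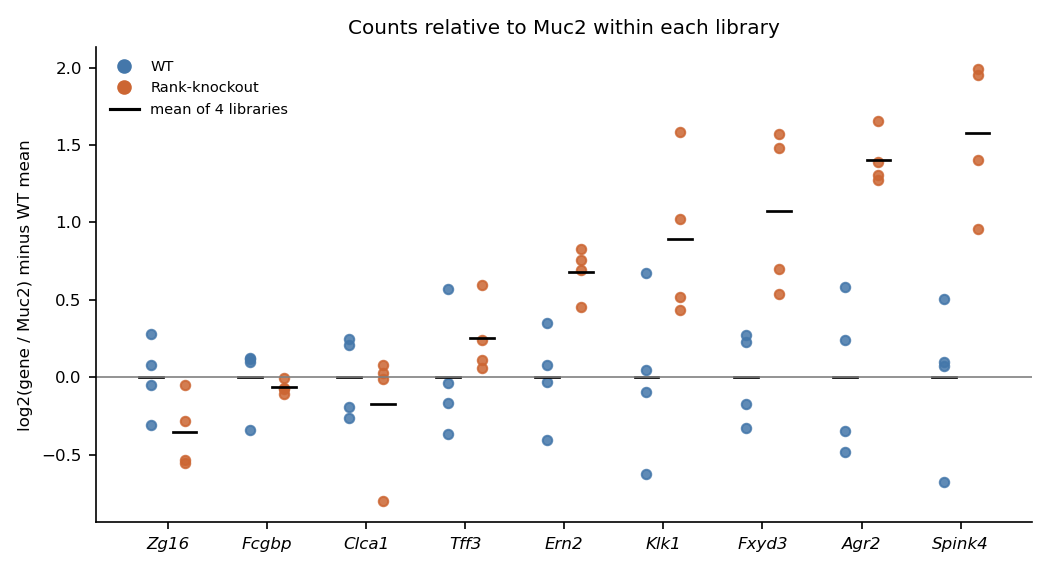
Log2 ratio of each gene to Muc2 in the same library, minus the WT mean of that ratio (y axis), for WT (blue) and Rank-knockout (orange) libraries, with bars at group means. Zg16, Fcgbp, Clca1 and Tff3 overlap between genotypes, while Ern2, Fxyd3, Agr2 and Spink4 are separated, by 0.68 to 1.58 on the log2 scale. Muc2, the divisor, was itself lower in Rank-knockout libraries, so a gene of unchanged level lies above the WT mean.

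Likeness of profile was measured as the root mean square difference of log2 CPM over the 8 libraries, each gene centred on its own mean. Muc2 and Fcgbp were the closest pair of the 10 (0.145), and Clca1 and Spink4 the farthest (1.02). Of 7972 genes with a mean of at least 10 CPM, those nearest to Muc2 were Fbxl15 (0.0863), S100pbp (0.0904), Mxd4 (0.0937), Rock2 (0.101) and Akap9 (0.108). Those nearest to the mean profile of the 10 genes were Fra10ac1 (0.0388), Dhrs4 (0.0543), Snx6 (0.0573), Bnip1 (0.0614) and Ptpn1 (0.0651). That mean joins genes that fell and genes that rose, and its nearest genes had log2 fold changes from -0.07 to 0.03.

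Of 20 other goblet genes, 12 were tested, 2 were called lower and 0 higher by edgeR, where 14.6% of all tested genes were lower and 15.8% higher, and the median log2 fold change was -0.07, near the 0.02 of all tested genes. At an unadjusted p under 0.05 the higher count was 1, and it was 0 in DESeq2 and in limma-voom. Both calls stood at the threshold, Oit1, a secreted cytokine-like protein also called Fam3d (-0.44 ± 0.16 SE, edgeR adjusted p = 0.0492) and Bcas1 (-0.61 ± 0.23 SE, edgeR adjusted p = 0.0498), and the count fell to 0 or 1 under 15 of 16 other settings. Retnlb, a goblet antibacterial peptide, had 32 counts in all, and every one came from Rank-knockout replicate 1. Tff1, Tff2, Muc5ac, Muc5b and Muc6, which are typical of gastric, airway and other mucus, were at 0 in all 8 libraries.

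Of 10 goblet transcription factors, 9 were tested, 1 was called lower and 1 higher, beside 14.6% and 15.8% of all tested genes, with a median log2 fold change of 0.31. Klf4, a zinc finger factor of terminal goblet differentiation that is also expressed on the villus, fell below every WT library in all 4 Rank-knockout libraries, which held 593 to 786 CPM against 1439.6 to 1915 CPM in WT (log2 fold change -1.21 ± 0.15 SE, edgeR adjusted p = 0.000149). Foxa3, a forkhead factor, ran from 68.6 to 119 CPM in WT libraries and from 98.1 to 173 CPM after Rank deletion, and was called higher (0.71 ± 0.21 SE, edgeR adjusted p = 0.0180). The Foxa3 call depended on single libraries, since it was lost when WT replicate 1, 3 or 4 was left out, and likewise for replicates 1 and 3 of the Rank-knockout mice (0.59 to 0.67, adjusted p = 0.0571 to 0.0708). Without WT replicate 2, 3 factors were called higher. Neither Atoh1 (0.19 ± 0.28 SE, adjusted p = 0.649), which starts the secretory lineage, nor Spdef (0.31 ± 0.25 SE, adjusted p = 0.367) nor Xbp1 (0.21 ± 0.24 SE, adjusted p = 0.545), a factor of the secretory stress response, passed the edgeR test.

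Several endoplasmic reticulum folding genes rose, as Agr2 did. All 10 on the list were tested, 6 were called higher and 0 lower by edgeR, beside 15.8% higher and 14.6% lower among all tested genes, with a median log2 fold change of 0.52. The lower count was 1 at an unadjusted p under 0.05 and 0 in DESeq2 and in limma-voom. Pdia6, another disulfide isomerase, stood at 142 to 212 CPM in WT libraries against 329 to 426 CPM after Rank deletion (0.99 ± 0.15 SE, edgeR adjusted p = 0.000418). Manf, a secreted stress-induced factor (0.75 ± 0.20 SE, adjusted p = 0.0108), and the chaperone Hsp90b1 (0.53 ± 0.14 SE, adjusted p = 0.0115) followed. Ern1, the widely expressed relative of Ern2, did not pass (0.19 ± 0.26 SE, adjusted p = 0.602). Without WT replicate 4, only 3 of the 10 were called higher. These genes act in all secretory cells, not only goblet cells.

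Of 20 genes of mucin O-glycosylation, the attachment of sugars to mucins, 13 were tested, 1 was called lower and 1 higher, counts near the 14.6% and 15.8% of all tested genes, with a median of -0.07. Galnt12, which starts O-glycan chains, rose from 95.9 to 134 CPM in WT to 162 to 221 CPM in Rank-knockout libraries (log2 fold change 0.83 ± 0.15 SE, edgeR adjusted p = 0.00112). B4galnt2, which caps them, was called lower (-0.65 ± 0.19 SE, edgeR adjusted p = 0.0179), though no gene of the list was called lower with library totals or with library sizes that left out the 50 most abundant genes.

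Of 7 transmembrane mucins, which stay on the cell surface and do not form the gel, 6 were found and 4 tested, with 1 called lower and 1 higher (all tested genes, 14.6% and 15.8%) and a median of -0.25. Muc13, the most abundant, held 2866 to 3318 CPM in WT libraries against 1575 to 2238 CPM after Rank deletion (-0.70 ± 0.15 SE, edgeR adjusted p = 0.00350). Without Rank-knockout replicate 1, 2 of the 4 were called lower. Muc4 rose from 8.62 to 18.6 CPM in WT to 25.2 to 52.2 CPM in Rank-knockout libraries (1.28 ± 0.29 SE, edgeR adjusted p = 0.00441).

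Relatives of the 10 genes also moved in both directions. Of 24 paralogs, 6 were tested, 3 called lower and 1 higher (all tested genes, 14.6% and 15.8%), with a median of -0.62. Spink1, a pancreatic-type trypsin inhibitor, fell in all Rank-knockout libraries, from 6828 to 9699.6 CPM in WT to 2794 to 3281 CPM (log2 fold change -1.38 ± 0.16 SE, edgeR adjusted p = 0.000101), whereas Spink4 rose. Clca4a (-1.72 ± 0.20 SE, adjusted p = 0.000132) and Clca4b (-1.28 ± 0.37 SE, adjusted p = 0.0319) were lower with Clca1, and Clca3b (1.26 ± 0.23 SE, adjusted p = 0.00127) was higher in the same edgeR fit. Reads shared between near-identical Clca genes would make their split uncertain.

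Markers of other epithelial cells moved with these results, and their counts stand beside 14.6% of all tested genes called lower and 15.8% called higher. All 12 villus enterocyte markers were tested and 11 were called lower (median -1.06), led by Treh (-1.39 ± 0.15 SE) and Apoa1 (-1.26 ± 0.14 SE), each with edgeR adjusted p = 9.88e-05. Their summed level was 27896 to 39888 CPM in WT libraries against 13626 to 19229.8 CPM after Rank deletion. Of 10 crypt and cycling markers, 8 were called higher (median 1.13), among them Aurka (1.33 ± 0.17 SE, edgeR adjusted p = 0.000140) and Top2a (1.12 ± 0.19 SE, adjusted p = 0.000750), and the sum rose from 524 to 799 CPM to 1012 to 1852 CPM. Of 10 Paneth markers, 5 were called higher by edgeR (median 1.19), 7 by DESeq2 and 8 by limma-voom, with Ang4 (1.22 ± 0.30 SE, edgeR adjusted p = 0.00891) and Defa22 (1.52 ± 0.40 SE, adjusted p = 0.0102) first, and the sums overlapped, at 2899 to 5371 CPM in WT libraries against 3397 to 12608.5 CPM after Rank deletion. No marker of these 3 lists was at 0 in all libraries. The part of these shifts in the goblet values was not tested.

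Of the remaining lists, enteroendocrine cells had 9 of 10 markers tested and 1 called lower, the neurotensin gene Nts (-1.37 ± 0.39 SE, edgeR adjusted p = 0.0200), and 0 higher, against the same shares of all tested genes. Tuft cells had 5 of 10 tested and T cells 6 of 8, with 0 called in either direction in edgeR. At an unadjusted p under 0.05, 1 enteroendocrine gene was higher and 1 tuft and 1 T cell gene were lower, and DESeq2 and limma-voom called 0 of these. The list medians were -0.03 for enteroendocrine, -0.06 for tuft and -0.36 for T cell markers. Of the B and plasma cell, stromal and muscle and pancreatic acinar markers 1 of 8 each was tested and did not pass in edgeR, although DESeq2 and limma-voom each called 1 B and plasma cell marker lower, and of the myeloid markers 0 of 8 had enough counts to be tested.

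**Figure D4:**
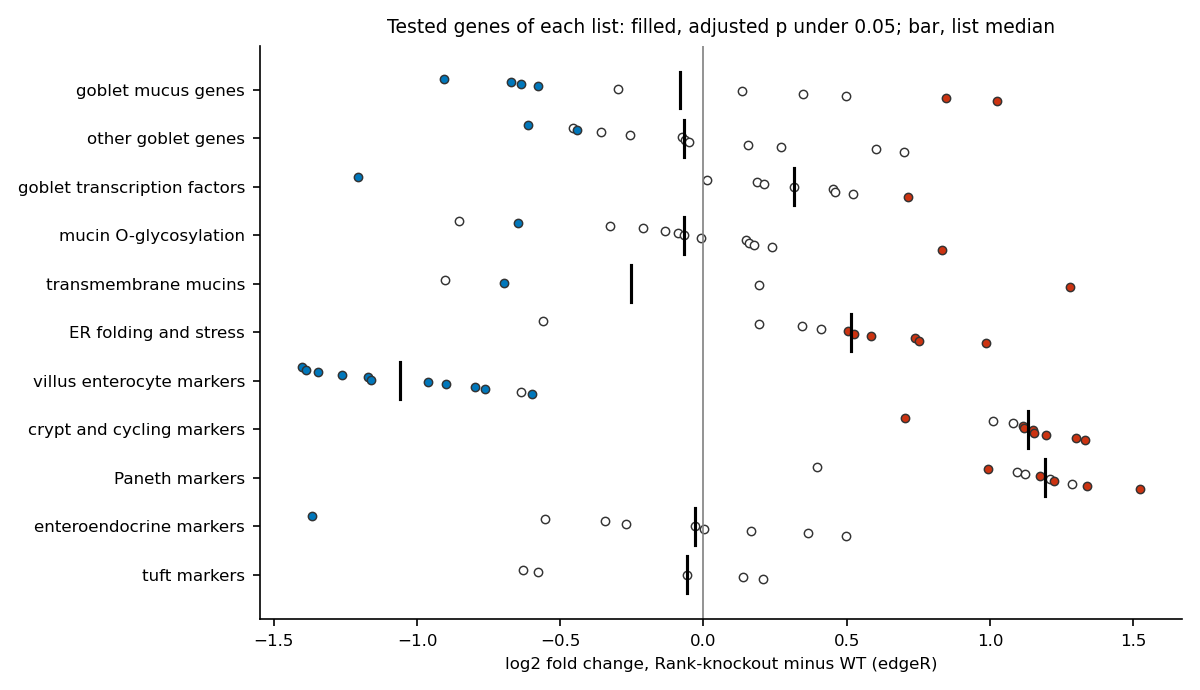
Log2 fold change, Rank-knockout minus WT (x axis), of each tested gene in 11 gene lists (rows), filled blue or red where called lower or higher at an edgeR adjusted p under 0.05 and open otherwise, with the list median as a bar. The goblet mucus genes spread to both sides of 0 with a median of -0.08, villus enterocyte markers lie to the left (median -1.06) and crypt, cycling and Paneth markers to the right (medians 1.13 and 1.19).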

How the data were processed

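Intestinal epithelial cells from 4 WT and 4 Rank-knockout mice at lactation day 5 gave 8 QuantSeq 3′ mRNA libraries. The deposited table holds unnormalized counts of reads for each gene. According to their methods, the authors trimmed reads with BBDuk, removed abundant sequences with bowtie2, mapped what remained with STAR to the GRCm38 build and counted sense-strand reads with featureCounts. No molecular identifiers are mentioned, so PCR copies count as reads. Counts are taken as 1 library per mouse.

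Gene symbols came from GENCODE M21 (54495 of 54532 identifiers matched). Counts were filtered with filterByExpr, scaled by TMM and tested with edgeR 4.0.16 (quasi-likelihood, robust, genotype as the only term, R 4.3.3), with Benjamini-Hochberg adjustment over all 9855 genes and a threshold of 0.05. DESeq2 1.42.0, limma-voom (limma 3.58.1), other scalings and filters, and each library left out were tried as alternatives. The fit was tested on simulated data. Replicates of a genotype differed by more than sampling noise.

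The 10 genes and the other lists were chosen with earlier results of these data known. Named were all 10 genes, the targeted gene, up to 3 called genes with the smallest p per direction in the pathway lists (up to 2 in marker lists), Atoh1, Spdef, Xbp1, Ern1 and Retnlb as defining genes, and the 5 nearest profiles. Genes at 0, Muc5ac and others, were named after their values were seen.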

Additional observations from a re-analysis of the deposited data

Results flagged for a closer look

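Each genotype holds 4 libraries, and in 5 of 42 sets of 4 values 1 library lay far from the other 3, where chance would give about 2.1. Rank-knockout replicate 2 held the highest Ern2 level among Rank-knockout libraries, 27.0 CPM, against 22.9 CPM in the next of that genotype. WT replicate 2 held the highest Fxyd3 level among WT libraries, 45.9 CPM, against 31.3 CPM in the next. It also had the lowest Fcgbp count relative to Muc2 in WT, 99.7% against 135% in the next WT library, and the largest total in WT, 4335653 counts against 1616024. In Rank-knockout replicate 1, Clca1 stood at 108% of Muc2, the lowest of its genotype, against 186% in the next Rank-knockout library. No explanation of these values was tested.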

How the results depend on the processing

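Agr2, Spink4, Fcgbp and Zg16 kept their direction and their call under all 16 alternatives, and the fold changes of the 10 genes did not reverse under any. Library totals in place of TMM left 2 of the goblet genes called lower (Fcgbp and Zg16), with 857 genes lower and 2575 higher overall. They moved the median of all genes by 0.20 on the log2 scale, and 75.0% of calls were then higher, against 52.0% with TMM. Library sizes without the 50 most abundant genes moved it by 0.13 and gave 68.3% higher. Leaving out 1 library gave 3 to 4 goblet genes lower, and 1020 to 1723 genes higher overall against 1555, the fewest without WT replicate 4. Over all settings the list counts ran from 0 to 2 lower and 0 to 1 higher for other goblet genes, 0 to 3 higher for transcription factors, 0 to 3 lower and 1 to 2 higher for O-glycosylation, 1 to 2 lower for transmembrane mucins, and 0 to 1 lower and 3 to 8 higher for endoplasmic reticulum folding. Transcription factors stayed at 1 lower and transmembrane mucins at 1 higher. DESeq2 and limma-voom called the same 4 lower and 2 higher goblet genes as edgeR.

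The labels do not say whether mice with the same replicate number were paired, and the correlations below are too few to decide it. The correlations of same-numbered deviations were 0.05, 0.15, -0.14 and 0.32, and replicates 1 and 4, but not 2 and 3, correlated best with their own number. With the replicate number as a block, 4 of the goblet genes were lower and 2 higher, with 1602 genes lower and 1708 higher overall.

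Precision is limited by 4 mice per genotype and by depth. Ern2, with 178 counts in all WT libraries, Klk1, with 219, and Fxyd3, with 313, are the least precisely counted. The segment of intestine and the composition of each cell suspension were not measured.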
